A study of Mus musculus with 2 samples.

Results

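Glutamatergic cells with Slc17a6 and the transcription factors Tcf7l2 and Lef1, a combination known from thalamic relay neurons, were examined in single-cell libraries of aged mouse hippocampus. The cells were chosen by their measured counts. A cell was kept with at least 2000 unique molecular identifiers (UMIs, single captured molecules), at least 3 UMIs of Slc17a6 and more of it than of Gad1 and Gad2 together, and at least 5 UMIs of Tcf7l2 and Lef1 together that made up at least 2 of every 10000 UMIs. It also had fewer than 3 UMIs of 6 factors of other Slc17a6 neurons (Pou4f2, Barhl1, Barhl2, Tfap2d, Mab21l2 and Ebf3), and fewer UMIs of the glial genes Mog, Mag and Aqp4 than of Slc17a6, Tcf7l2 and Lef1. The rule found 798 of the 31097 cells in both libraries, 437 of 15912 in control and 361 of 15185 in tomatidine.

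C57BL/6 wild-type mice were 21 months old at the start and ate chow, or chow with 0.05% tomatidine, for 3 months. Tomatidine is the steroidal alkaloid aglycone of the tomato compound tomatine. Hippocampi of 4 mice were pooled into each of 2 libraries, 1 per group, and counts came from hybridised probes on fixed cells. With 1 library per group no difference between diets can be tested, pooled mice cannot be separated, and the intervals given are 95% intervals that cover counting error only. The control library held 279525565 UMIs and the tomatidine library 259059908. Of the barcodes, 292 occurred in both libraries, but 0 barcodes belonged to chosen cells of both.

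Thalamic relay neurons send sensory and motor signals to the cortex and receive dense feedback from it. They release glutamate loaded by the vesicular transporter VGLUT2, the product of Slc17a6, whereas most hippocampal and cortical excitatory neurons use VGLUT1, encoded by Slc17a7. TCF7L2 and LEF1 are DNA-binding partners of beta-catenin, and TCF7L2 shapes the identity of thalamic neurons after they are born. The thalamus lies beneath the hippocampus and is no part of it, so the number of such cells in a library can depend on how the tissue was cut out, and this cannot be told apart from a change in the animals.

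The cells made up 3.13% (exact interval 2.84 to 3.43) of the 13974 control cells with at least 2000 UMIs and 2.69% (2.43 to 2.98) of the 13406 tomatidine cells. The difference was −0.434 percentage points, with a Newcombe interval of −0.833 to −0.0356. Its direction turned when cells with over 6000 genes were left out, a limit that the methods of the study name and that removed 324 of the 437 control cells and 223 of the 361 tomatidine cells: the shares were then 1.13% and 1.46%, and the difference was 0.326 (0.00823 to 0.649). Without cells that had more Slc17a7 than Slc17a6 or over 0.5% of their UMIs in 5 glial and vascular genes, which left 279 control and 267 tomatidine cells, it was −0.00492 (−0.337 to 0.328). It was −0.175 (−0.570 to 0.220) under the other quality limits of the study (genes per UMI and mitochondrial share), −0.218 (−0.588 to 0.151) without cells with at least 3 UMIs of 7 habenula genes, which left 362 and 318 cells, and −0.393 (−0.800 to 0.0147) with at least 2 Slc17a6 UMIs, so these 4 intervals took in 0. Close to the thresholds stood 12 control and 22 tomatidine cells with exactly 3 Slc17a6 UMIs, while 15 and 20 cells missed the rule with 2. Likewise 25 and 21 cells entered with 5 UMIs of Tcf7l2 and Lef1, and 29 and 27 stayed out with 4.

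The cells were deep, and the UMI minimums of the rule favour deep cells. Control cells had from 2431 to 332107 UMIs with a median of 41125, and tomatidine cells from 2629 to 207235 with a median of 24702. Hippocampal and cortical excitatory neurons of the same libraries, taken by an analogous rule on Slc17a7, had medians of 14388.5 UMIs in 5748 control cells and 13481 in 5065 tomatidine cells. Other Slc17a6 neurons were deep as well. Cells with at least 3 UMIs of the 6 excluded factors had medians of 33350 in control and 30359.5 in tomatidine. Cells that failed the condition on Tcf7l2 and Lef1 alone had 24162 and 19607. The thalamic cells thus differed in depth between the libraries more than the comparison cells did, and all levels below are therefore CPM, the UMIs of a gene per 1000000 UMIs summed over the cells of a library. A UMI of a Y-linked gene was found in 93.8% of the control and 92.2% of the tomatidine cells.

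The label was set beside 24 genes known from the thalamus, other than the 3 genes of the rule. This list was chosen with earlier results of these data known, so its counts describe the cells and are no independent check. In the comparison with hippocampal and cortical excitatory neurons, a gene was called when it differed at least 2-fold in the same direction in both libraries; 8.54% of 13827 genes were called higher and 10.6% lower. Of the 24 thalamus genes, 23 were higher and 0 lower than in these neurons at the level of the sum. The habenula list was raised too, with 10 of 13 genes higher and 0 lower. Its median log2 ratio was 4.68 in control and 4.22 in tomatidine, against 4.79 and 4.65 for the thalamus list. Of 8 oligodendrocyte markers, 6 were higher and 0 lower. The summed level of the 24 thalamus genes was 9313 CPM in control and 8389 CPM in tomatidine cells, against 575 and 664 CPM in the hippocampal and cortical neurons. In 2 other sets of Slc17a6 neurons the sum was lower as well: 3658 and 2948 CPM in cells with at least 3 UMIs of the 6 excluded factors, and 1129 and 1150 CPM in cells that failed the condition on Tcf7l2 and Lef1 alone. GABAergic neurons had 1652 and 1769 CPM.

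The genes that chose the cells had these levels. Slc17a6 (chr7:51622006-51671119, plus strand, GRCm38) stood at 901 CPM in control and 876 CPM in tomatidine cells, against 9.18 and 14.2 CPM in hippocampal and cortical neurons. Tcf7l2 (chr19:55741820-55933654, plus strand) stood at 790 and 952 CPM, against 8.21 and 9.51 CPM. Lef1 (chr3:131110471-131224356, plus strand) stood at 207 and 190 CPM, against 2.22 and 2.40 CPM. These values follow from the rule and are a description. Tcf7l2 had at least 1 UMI in 436 of 437 control and 361 of 361 tomatidine cells, whereas Lef1 had one in 85.6% and 71.5%, so most of the sum in the rule came from Tcf7l2. Slc17a7 was not absent from the chosen cells, with at least 1 UMI in 91.3% of control and 83.9% of tomatidine cells. Its UMIs numbered 15254 and 6224, beside 19406 and 10412 of Slc17a6. The source of this Slc17a7 was not tested.

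Among genes the rule did not use, Prkcd (chr14:30595354-30626210, minus strand), which encodes protein kinase C delta and marks sensory relay nuclei, stood at 1778 CPM in control and 1142 CPM in tomatidine cells, against 27.0 and 20.1 CPM in hippocampal and cortical neurons. Rora (chr9:68653786-69388246, plus strand), a nuclear receptor of relay neurons, stood at 712 and 598 CPM, against 31.8 and 39.0 CPM. Ntng1 (chr3:109780040-110144011, minus strand), which encodes the axonal adhesion protein netrin-G1, stood at 636 and 686 CPM, against 79.8 and 98.7 CPM. In all 3 genes the gap between the cell types was far wider than that between the libraries. Gbx2, a homeobox factor of the developing thalamus, differed most from the hippocampal and cortical neurons within the list, with 95.1 and 101 CPM against 0.31 and 0.32 CPM. The exception was Lhx2, a LIM homeobox factor that the hippocampus and cortex also use, at 57.6 and 72.1 CPM against 88.7 and 92.4 CPM.

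**Figure D1:**
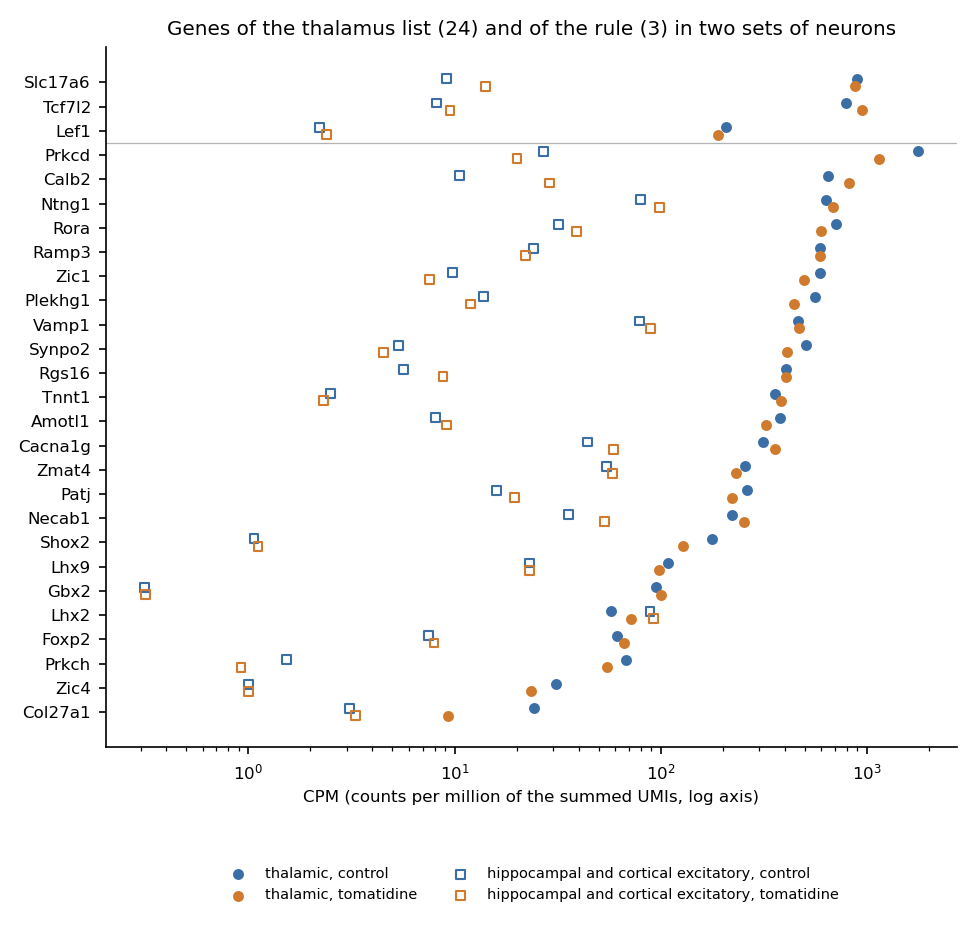
CPM (log axis) of the 3 genes of the rule (above the line) and the 24 genes of the thalamus list in the thalamic cells (filled circles) and in hippocampal and cortical excitatory neurons (open squares), each point 1 library, blue for control and orange for tomatidine. Levels are to be compared within a gene; 23 of 24 list genes lie at least 2-fold to the right of the squares in both libraries, and Lhx2 does not.

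Over all genes, the 20 with the largest ratio to hippocampal and cortical neurons in the library where it was smaller were Lmod2, Gbx2, Kmo, Abhd12b, Prr30, Tafa4, Tnnt1, Gpat2, Adra2b, Adamts19, Shox2, BC030867, Tcf7l2, Vipr2, Smpx, Synpo2, Lef1, Edaradd, Mrvi1 and Grid2ip. Lmod2, Kmo and Prr30 had at most 0.0213 CPM in the comparison cells, so their ratios are loose, with an interval of 7.03 to 14.9 on the log2 scale for Lmod2 in control. Lmod2, Tnnt1, Smpx and Synpo2 are known from striated muscle, where they build or bind actin filaments and the sarcomere. Tnnt1, slow skeletal troponin T, stood at 359 and 383 CPM against 2.51 and 2.32 CPM, and Synpo2, an actin-bundling protein, at 506 and 408 CPM against 5.35 and 4.53 CPM. Adra2b and Vipr2, receptors for noradrenaline and for vasoactive intestinal peptide, stood at 30.2 and 38.0 CPM against 0.23 and 0.13 CPM, and at 63.9 and 71.6 CPM against 0.68 and 0.74 CPM. At the other end were Olfr539, Adamts14, Slc23a3, Tmem171, Pla2g2d, Klk10, Ccn2, Egr2, Urah and Cplx3. Ccn2, a secreted matrix protein of deep cortical layers, stood at 2.88 and 3.87 CPM against 91.9 and 89.7 CPM, and Cplx3, a complexin of the release machinery, at 1.62 and 1.43 CPM against 30.7 and 34.1 CPM. The other 8 had at most 7 UMIs in the thalamic cells of either library, so their ratios are loose.

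Firing in bursts, a hallmark of relay neurons, rests on T-type calcium channels and on the HCN channels that carry the pacemaker current. Of 16 T-type, HCN and leak channel genes tested, 4 were called higher and 3 lower than in hippocampal and cortical neurons. Calls here and in the lists that follow stand beside 8.54% higher and 10.6% lower over all 13827 genes. Hcn4, a slow HCN subunit, stood at 124 CPM in control and 108 CPM in tomatidine cells against 2.14 and 2.74 CPM, a log2 ratio of 5.86 (5.68 to 6.03) and 5.31 (5.13 to 5.49). Cacna1g, the T-type channel Cav3.1, stood at 314 and 358 CPM against 44.4 and 59.2 CPM. The sister genes went the other way: Cacna1h (Cav3.2) stood at 10.5 and 18.5 CPM against 149 and 144 CPM, and Cacna1i (Cav3.3) at 32.9 and 42.6 CPM against 90.1 and 103 CPM. Hcn2 was higher at 374 and 386 CPM against 166 and 188 CPM. The T-type family was thus split between its members, with the same sign in both libraries.

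Of 25 voltage-gated potassium and sodium channel genes, 7 were higher and 2 lower. The lower count was near the 10.6% over all genes. Kcnc2, the fast potassium channel Kv3.2, stood at 716 and 678 CPM against 72.2 and 72.2 CPM, and Kcnc1 (Kv3.1) at 317 and 356 CPM against 89.7 and 104 CPM. Scn1a, the sodium channel Nav1.1, stood at 419 and 431 CPM against 80.1 and 90.9 CPM, and Scn4b, the beta subunit of resurgent sodium current, at 171 and 164 CPM against 34.9 and 26.0 CPM. Kcnc4 and Kcnq5 were the 2 that were lower. Kv3 and Nav1.1 channels are known for sustaining fast firing.

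Of 24 glutamate receptor genes, 7 were higher and 6 lower. Grin2d, an NMDA receptor subunit, stood at 101 and 125 CPM against 3.59 and 4.70 CPM, Grm4, a presynaptic metabotropic receptor, at 211 and 182 CPM against 12.8 and 16.5 CPM, and Grin2c at 102 and 101 CPM against 10.2 and 13.1 CPM. The AMPA receptor genes were split: Gria4 stood at 204 and 215 CPM against 50.4 and 68.1 CPM, whereas Gria1 stood at 255 and 260 CPM against 1158 and 1131 CPM and Gria2 at 344 and 468 CPM against 1338 and 1427 CPM. Of 18 GABA and glycine receptor genes, 7 were higher and 3 lower. Gabrd, the delta subunit of extrasynaptic GABA-A receptors, stood at 364 and 277 CPM against 89.7 and 80.3 CPM, and its partner Gabra4 at 533 and 446 CPM against 191 and 189 CPM. Gabra5, an alpha subunit abundant in hippocampal pyramidal cells, was lower at 51.4 and 67.7 CPM against 373 and 317 CPM. Glra1, a glycine receptor subunit, had 283 UMIs in control and 198 in tomatidine cells and a log2 ratio of 5.50 (5.02 to 6.01) and 4.53 (4.16 to 4.92).

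Of 18 genes of transmitter release and the axon, 7 were higher and 3 lower. The complexins, which clamp and trigger vesicle fusion, were opposed: Cplx1 stood at 1388 and 1033 CPM against 397 and 407 CPM, and Cplx2 at 107 and 102 CPM against 691 and 696 CPM. Nefh, the heavy neurofilament of thick axons, stood at 391 and 298 CPM against 38.9 and 38.9 CPM, and Syt9, a calcium sensor, at 58.4 and 42.1 CPM against 1.77 and 1.81 CPM. Of 20 immediate early genes, which follow recent activity, 0 were higher and 15 were lower. Arc stood at 19.4 and 24.4 CPM against 165 and 133 CPM, Egr3 at 18.2 and 20.4 CPM against 178 and 169 CPM, and Egr1 at 130 and 131 CPM against 393 and 343 CPM. Fos did not differ 2-fold, at 58.4 and 33.4 CPM against 47.4 and 38.0 CPM. The 20 genes summed to 1319 and 1251 CPM, against 2802 and 2632 CPM in hippocampal and cortical neurons. GABAergic cells had 1332 and 1028 CPM, and Slc17a6 cells with the excluded factors 1113 and 984 CPM. Slc17a6 cells with low Tcf7l2 and Lef1 had 3323 and 2862 CPM. The low sum was thus not particular to the thalamic cells. Cells were dissociated from frozen tissue, and the part of that step in these levels was not tested.

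**Figure D2:**
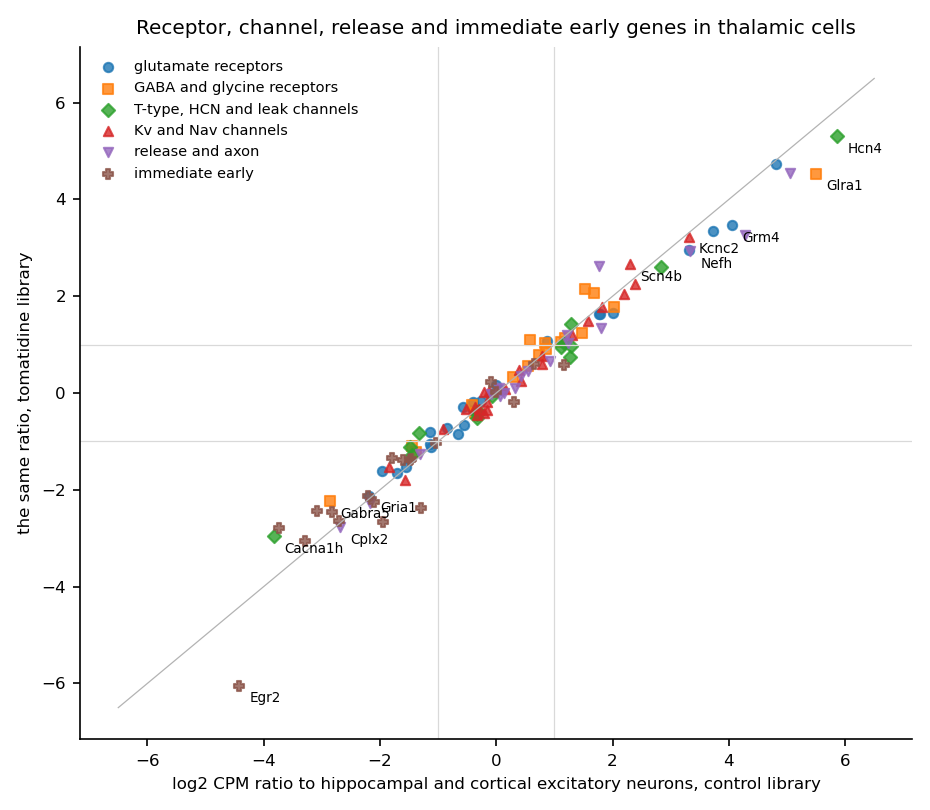
Log2 CPM ratio of the thalamic cells to hippocampal and cortical excitatory neurons in the control library (horizontal) and the tomatidine library (vertical), 1 point per gene of 6 lists, with grey lines at a 2-fold difference and the diagonal of equal ratios. Hcn4 lies at 5.86 and 5.31, Cacna1h at −3.82 and −2.96, and 15 of the 20 immediate early genes are at least 2-fold lower in both libraries.

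TCF7L2 and LEF1 pass on Wnt signals through beta-catenin. Leaving out the 2 factors, whose level the rule fixed, 13 of 37 genes of this pathway were higher and 4 lower than in hippocampal and cortical neurons. Among ligands, Wnt3 stood at 52.0 and 52.7 CPM against 1.09 and 1.85 CPM and Wnt9b at 28.7 and 19.4 CPM against 0.58 and 1.07 CPM, whereas Wnt7b was lower at 10.3 and 13.05 CPM against 65.1 and 69.8 CPM. Among receptors, Lgr5, which binds R-spondins, stood at 18.7 and 19.4 CPM against 1.07 and 1.58 CPM, and the Frizzled genes Fzd1, Fzd5, Fzd8 and Fzd10 were all higher. Of the UMIs of Fzd5, 61.9% lay in the 22 cells of cluster 12, described below. In the other thalamic cells Fzd5 stood at 2.98 CPM, against 2.13 CPM in hippocampal and cortical neurons of either library, short of 2-fold. Among inhibitors, Nkd1 stood at 41.2 and 23.1 CPM against 4.63 and 5.18 CPM, and the secreted Dkk3 was lower at 76.3 and 82.7 CPM against 555 and 565 CPM. Axin2, a widely used target of the pathway, stood at 75.8 and 89.6 CPM against 54.6 and 61.1 CPM and was not called. Ctnnb1, beta-catenin itself, stood at 604 and 528 CPM against 327 and 322 CPM, also short of 2-fold.

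Genes of energy supply and stress were counted next, against the 8.54% higher and 10.6% lower over all genes. Of 35 nuclear and 13 mitochondrial genes of the respiratory chain, 0 were called in either direction. Of 33 genes of the integrated stress response, the ATF4-driven programme of amino acid supply and translation control, 1 was higher and 3 were lower: Mthfd2, a mitochondrial folate enzyme, stood at 20.1 and 25.8 CPM against 7.54 and 8.32 CPM. Cdkn1a (chr17:29090976-29100727, plus strand), which encodes the cell cycle inhibitor p21, had 74 UMIs in control and 39 in tomatidine cells. That is 3.44 and 3.28 CPM, against 9.00 and 9.07 CPM in hippocampal and cortical neurons, so p21 transcript was lower than in these neurons in both libraries. Slc17a6 cells with the excluded factors were about as low, at 3.59 and 4.11 CPM. Those with low Tcf7l2 and Lef1 stood at 14.5 and 13.2 CPM, and GABAergic cells at 10.9 and 7.11 CPM.

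The cells were not uniform. Clustering without the genes of the rule and the Y-linked genes gave 12 clusters, numbered by size. A cluster's leading genes are those with the highest fold against the other cells, and they describe the cluster without a test. Cluster sizes were set by the same genes whose levels could differ between libraries, and a cluster mostly of 1 library may be that library and not a type.

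Clusters 1, 7, 10, 11 and 12 did not take the name of another cell type by the marker rule, which asked for at least 3 raised markers of a list, 1 of them among the 10 leading genes, and they kept the thalamus list high, with a median log2 ratio to hippocampal and cortical neurons of 5.06, 4.53, 3.46, 3.82 and 3.16. Together they held 264 cells, 169 control and 95 tomatidine, here called the core. The threshold of 4-fold for the list median was set after the values were seen. Cluster 1 (81 control and 50 tomatidine cells) was led by Hspb1, Cox6a2 and Lmod2 and had Prkcd at 2184 CPM, Ramp3, a receptor-modifying protein, at 1069 CPM and Calb2 at 761 CPM. Cluster 7 (35 and 21 cells) was led by Igkc, Nmbr and Fbln1 and had Gbx2, Necab1, Calb2, Lhx2 and Foxp2 raised at least 2-fold over the other cells, genes of midline, intralaminar and higher-order nuclei. In cluster 7, 7 of 8 astrocyte markers were raised too, and only because none was among its 10 leading genes did its 56 cells count to the core. Cluster 10 (9 and 19 cells) was led by the neuropeptide genes Crh and Cartpt with P2ry1 and Nts, and had Calb2, the calcium-binding protein calretinin, at 3780 CPM and Prkcd at 54.1 CPM. Cluster 10 had the highest Calb2 of the 12 clusters.

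Cluster 11 (25 and 2 cells) was led by Wfdc10, Col27a1 and Sst. Col27a1, a fibrillar collagen known from sensory relay nuclei, stood there at 295 CPM and between 0.70 and 32.5 CPM in the other 11 clusters, while Calb2 was at 41.3 CPM and Ramp3 at 5.0 CPM. Sst is known from interneurons, and C1ql2, a gene of the hippocampal and cortical list, was among its 10 leading genes too. Cluster 11 had Gad1, Gad2 and Slc32a1 of the GABAergic list raised, with Gad2 at 64.4 CPM against 1000 CPM of Slc17a6. Cluster 12 (19 and 3 cells) was led by Fzd5, Pdyn and Ctxn3, with Cbln1, a synapse organiser, at 1782 CPM. With so few tomatidine cells no comparison between the diets was made in either alone, and values at equal weights rest on these 2 and 3 cells for genes concentrated there.

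Clusters 2, 4, 5, 6 and 9 kept a thalamus list median of 4.04 to 5.10 and took the name of another cell type by the marker rule. They held 391 cells, 208 control and 183 tomatidine. Cluster 2 (44 and 78 cells) had 7 of 7 microglial markers raised, with C1qa at 213 CPM, together with vascular genes such as Flt1, Rgs5 and Vtn, but each of its 10 leading genes was found in only 10.7% to 18.03% of its cells. Cluster 4 (50 and 34 cells) had 8 of 8 oligodendrocyte markers raised, with Mog at 247 CPM. Cluster 5 (50 and 29 cells) had 4 of 5 oligodendrocyte precursor markers raised but only in a minority of cells, Pdgfra in 16.5% of them, and also the highest Prkcd, at 3171 CPM, and Tnnt1, at 908 CPM. Cluster 6 (36 and 25 cells) had 8 of 8 astrocyte markers raised. It also had 6 of 7 microglial markers raised, with C1qa at 106 CPM, and the GABAergic genes Gad1, Gad2 and Slc32a1. Cluster 9 (28 and 17 cells) had 12 of 13 hippocampal and cortical markers raised. Scrublet, a doublet score, called only 0 control and 3 tomatidine cells of the whole libraries by its own threshold, so that its calls were of no use, and the top 2% of each library by score took in just 2 control and 4 tomatidine cells of the set. Whether 2 cells, attached fragments or free RNA gave the foreign markers was not tested.

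Cluster 8 went against the label and was habenula-like. The habenula is the neighbour of the thalamus in the epithalamus and its neurons also use Slc17a6 and Tcf7l2. All 13 habenula markers were raised in cluster 8, which was led by Tac2, Lhfpl1 and Tyrp1: Tac2, which encodes neurokinin B, stood at 1894 CPM and at most 28.0 CPM in the other 11 clusters, and Pou4f1, the POU factor of habenular neurons, at 441 CPM. Its thalamus list median was only 0.91 on the log2 scale. It held 36 control and 9 tomatidine cells. Cluster 3 likewise stood apart from the thalamus list, with a median of 1.59, Prkcd at 6.76 CPM, Ramp3 at 13.1 CPM and Lef1 at 23.9 CPM, although Tcf7l2 was at 1013 CPM. It was led by Tfap2b, Tacr3, Magel2, Meis2 and Sema3c and had 5 GABAergic markers raised while Slc17a6 stood at 928 CPM and Gad2 at 31.1 CPM. It held 24 control and 74 tomatidine cells and was left unnamed. Of the 13 habenula markers, 3 (Pou4f1, Tac1 and Irx2) were raised in cluster 3 too. The rule thus gathered 264 core cells, 391 cells in clusters with markers of another cell type, which in clusters 2 and 5 a minority of the cells carried, 45 habenula-like cells and 98 cells of cluster 3.

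**Figure D3:**
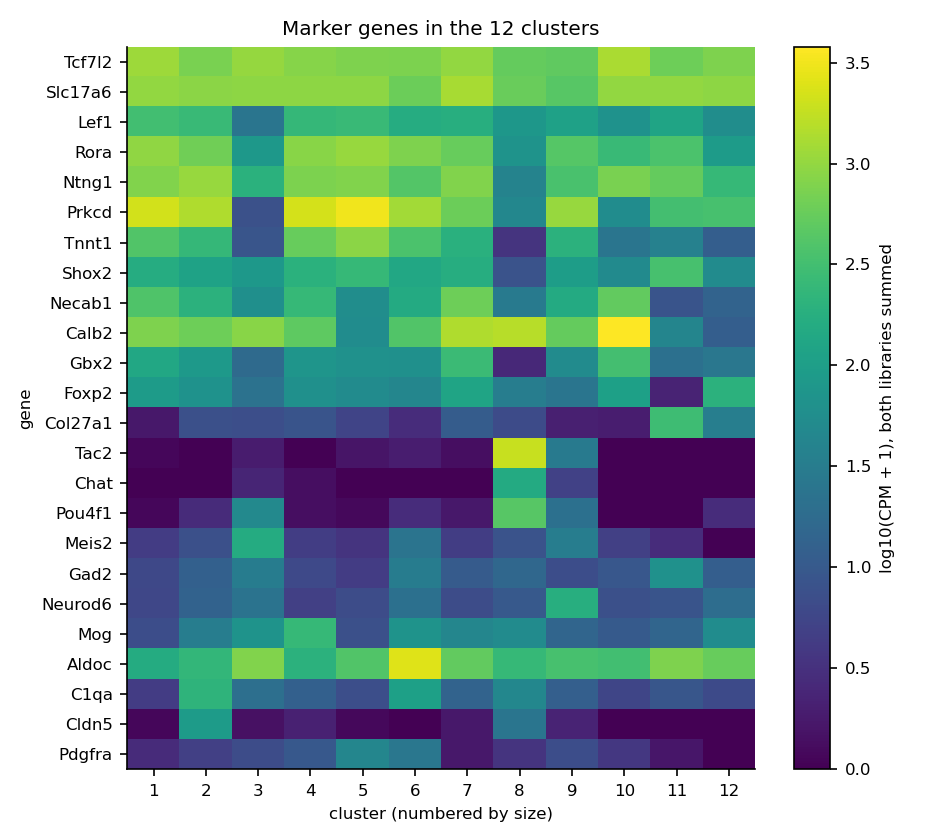
Log10 of CPM + 1, both libraries summed, of 24 genes (rows) in the 12 clusters (columns). Tcf7l2 and Slc17a6 are high in every cluster, Prkcd is low in clusters 3, 8 and 10, Tac2, Chat and Pou4f1 mark cluster 8, and glial, vascular and hippocampal genes mark clusters 2, 4, 5, 6 and 9. By the marker lists, Pou4f1 was raised in cluster 3 too, and 7 of 8 astrocyte markers were raised in cluster 7.

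Tomatidine was then set against control over the 798 cells. With 1 library a side, a gene was called when its CPM ratio was at least 1.5-fold; among 11532 genes with at least 100 UMIs, 511 were higher in the tomatidine library (4.43%) and 167 lower (1.45%). The median log2 ratio of all these genes was 0.05. Scaling by the trimmed mean of M values gave 391 higher and 213 lower. Counted in the 264 core cells alone, 2.57% of 9866 genes were higher and 2.56% lower (254 and 253 genes), and in cluster 1 alone 1.88% of 8024 were higher and 1.05% lower (151 and 84 genes). With the clusters weighted alike in both libraries, 447 were higher and 116 lower. The surplus of higher genes thus stood at equal weights and in cluster 1, but not in the core.

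The genes at the ends of this ratio were set beside the clusters. Highest were Crh, Otof, Nts, Vtn, Prph, Klf2, Lyz2, Tacr3, Cldn5 and Spp1. Crh, corticotropin-releasing hormone, had 39 UMIs in control and 172 in tomatidine cells (log2 ratio 3.0, 2.49 to 3.54), and Nts, neurotensin, had 114 and 419 (2.74, 2.43 to 3.05). Of their UMIs, 61.1% and 46.0% lay in cluster 10, which had 9 control and 19 tomatidine cells. With the clusters weighted alike in both libraries, the log2 ratios were 1.56 and 1.69. Of the UMIs of Tacr3, the neurokinin 3 receptor, 69.4% lay in cluster 3, and its ratio of 1.98 became 0.26. Vtn, Klf2, Lyz2, Cldn5 and Spp1 belong to vascular cells and microglia and had 64.0% to 85.2% of their UMIs in cluster 2. A single tomatidine cell held 344 of the 392 tomatidine UMIs of Vtn. Single cells held 140 of 175 for Lyz2, 94 of 151 for Klf2, 128 of 209 for Cldn5 and 155 of 169 for Spp1. Without the top cell of each library, Vtn, Lyz2 and Spp1 had log2 ratios of 0.42, 0.43 and −0.50, all short of 1.5-fold. Klf2 and Cldn5 then had 1.37 and 1.29. Prph, an intermediate filament protein of peripheral neurons, had 121 and 330 UMIs, a ratio of 2.31 that was 2.07 at equal weights. They came from only 24 control and 18 tomatidine cells, with 42 and 96 UMIs in the top cell of each library, and 8 control and 108 tomatidine UMIs lay in cluster 1.

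Lowest were Wfikkn2, Gal, Nppa, Cbln1, Gng8, Ttr, Trpm6, Syt15, Kcng4 and Gpr151. Wfikkn2, Nppa, Gng8, Syt15, Kcng4 and Gpr151 had 63.6% to 89.8% of their UMIs in the habenula-like cluster 8, which had 36 control and 9 tomatidine cells. Gpr151, an orphan receptor of habenular axons, had 1698 and 304 UMIs (log2 ratio −1.62, −1.80 to −1.45), and −0.89 at equal weights. Cbln1 had 2139 and 241 UMIs (−2.29, −2.49 to −2.10), 41.5% of them in cluster 12, and −1.09 at equal weights. Ttr, the carrier transthyretin made by the choroid plexus, had 2439 and 339 UMIs (−1.99) and −1.87 at equal weights, and was not bound to a cluster. The 6 choroid plexus genes summed to 263 CPM in control and 179 CPM in tomatidine cells and to 1599 and 464 CPM in hippocampal and cortical neurons, with Enpp2 the most abundant in the thalamic cells and 0 genes at 0. Of the 6, 3 had enough UMIs to be counted, with Ttr called lower, and the part of free RNA in the Ttr difference was not tested.

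**Figure D4:**
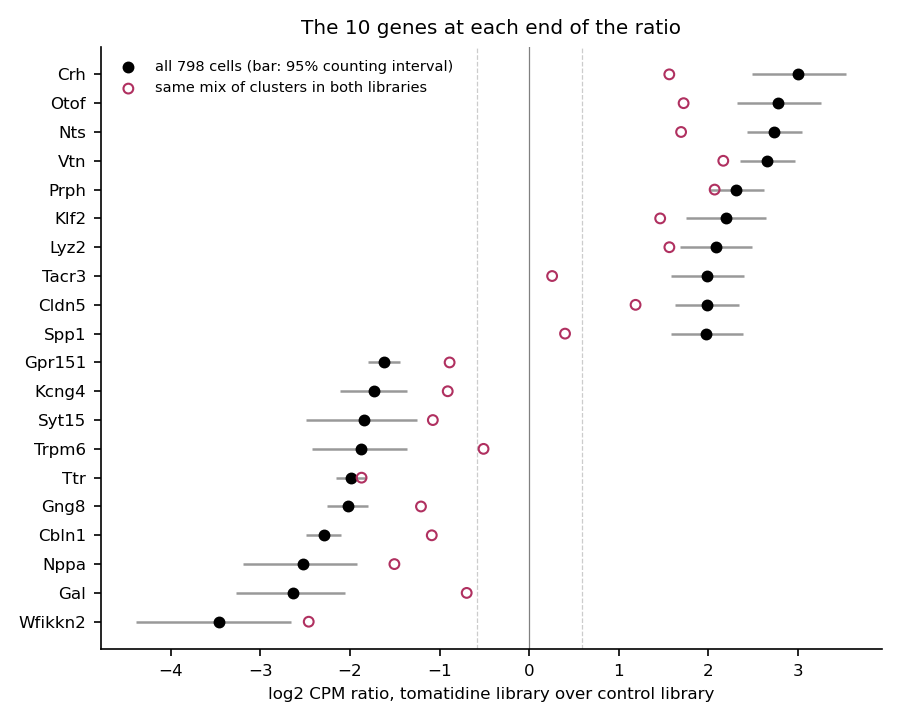
Log2 CPM ratio of tomatidine over control for the 10 genes at each end among genes with at least 200 UMIs: black points over all 798 cells with 95% counting intervals, open circles with the 12 clusters weighted alike in both libraries, dashed lines at 1.5-fold. Tacr3 moves from 1.98 to 0.26 and Gal from −2.64 to −0.70, while Ttr stays at −1.99 and −1.87. Gal had 35.7% of its UMIs in cluster 11, which held 2 tomatidine cells, and its ratio in the core was −2.19.

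Among the thalamus genes themselves, 0 of 24 were called higher and 2 lower, at a median log2 ratio of −0.14. Over all genes the shares were 4.43% higher and 1.45% lower. Prkcd had 38305 UMIs in control and 13571 in tomatidine cells, a log2 ratio of −0.64 (−0.67 to −0.61). It was −0.58 at equal weights, just short of 1.5-fold, −0.47 in the core and −0.71 in cluster 1, so it kept its sign throughout. In single cells Prkcd ranged from 0 to 62.7 per 10000 UMIs in control, with a median of 8.37, and from 0 to 42.4 in tomatidine, with a median of 3.47. The other called gene, Col27a1, had 521 and 110 UMIs (−1.39), 74.6% of them in cluster 11, and its direction turned to 2.10 at equal weights, where the 2 tomatidine cells of cluster 11 decide the value. Calb2 (chr8:110137502-110168210, minus strand) had 648 and 820 CPM, a log2 ratio of 0.34 (0.30 to 0.38) that was −0.08 at equal weights, 0.90 in the core and 1.15 in cluster 1. Over 21 settings the ratio of Calb2 ranged from −0.08 to 1.86. Prkcd and Calb2 thus had opposite signs in the core. The core ratios were not adjusted for the mix of clusters. Cluster 10, with Calb2 at 3780 CPM and Prkcd at 54.1 CPM, held 334617 of the 8374802 core UMIs in control. In tomatidine it held 738214 of 3483551, and the part of this shift in the core ratios was not tested. In the other neurons Prkcd was lower in the tomatidine library too, at 134 and 30.0 CPM in GABAergic cells, 48.1 and 23.0 CPM in Slc17a6 cells with the excluded factors, and 40.3 and 19.9 CPM in those with low Tcf7l2 and Lef1. Calb2 stood at 10.5 and 28.9 CPM in hippocampal and cortical neurons, but at 1054 and 574 CPM in Slc17a6 cells with the excluded factors. The part of free RNA in these values was not tested. Tcf7l2 itself had a ratio of 0.27, Slc17a6 of −0.04 and Lef1 of −0.12, none of them called.

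Calls in the receptor and channel lists, and in the lists that follow, stand beside 4.43% higher and 1.45% lower over all 11532 genes. Of 25 Kv and Nav channel genes 0 were called, and of 16 T-type, HCN and leak channel genes 2 were higher, Cacna1h (0.81, and 0.58 at equal weights, just under 1.5-fold) among them, and 0 lower. Of 24 glutamate receptor genes 2 were higher, Grm8 (0.76) among them, and 0 lower, and at equal weights 0 were called, with Grm8 at 0.30. Of 18 GABA and glycine receptor genes Gabrg1, Glra3 and Gabrg3 were higher and 0 lower. Gabrg1, a gamma subunit, stood at 20.6 and 44.0 CPM, a log2 ratio of 1.10 (0.91 to 1.28), and was also higher in the core (1.22) and at nearly 1.5-fold with equal weights (0.57). Glra3, by contrast, had 1.14 over all cells and 0.19 at equal weights, with 41.0% of its UMIs in cluster 3. Of 17 release and axon genes Syt2 (1.24) was higher and Sncg (−1.16) lower, and of 35 Wnt pathway genes Sfrp2 (1.11) was higher and Fzd5 (−1.05), Nkd1 (−0.83) and Ctnnbip1 (−0.60) were lower. At equal weights Sfrp2 and Fzd5 turned to −0.093 and 0.17, Nkd1 and Ctnnbip1 lost their call at −0.43 and −0.48, and Syt2 and Sncg kept theirs at 0.68 and −1.12. Of the UMIs of Fzd5, 61.9% lay in cluster 12, 18 of them from its 3 tomatidine cells. Of the UMIs of Sncg, 55.3% lay in the habenula-like cluster 8, and without cells with genes of other cell types Sncg was at −0.167 and not called. In the core, which leaves cluster 8 out, Sncg had 133 control and 6 tomatidine UMIs, a log2 ratio of −3.20 (−4.68 to −2.04). Within the core its level was highest in cluster 11, at 67.5 CPM, and that cluster had 25 control and 2 tomatidine cells.

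The lists that bear on ageing and on the treatment gave small medians. Of 29 integrated stress response genes 1 was higher (Aldh1l2, 0.95, and 0.00 at equal weights) and 0 lower (median 0.07). Of 17 senescence and p53 genes 1 was higher (Phlda3, 0.64) and 0 lower (median 0.04), but Phlda3 was at 0.14 at equal weights and at −0.42 in the core. Cdkn1a had a ratio of −0.07, which turned to 0.71 with each cell weighted alike and to 0.73 with cells thinned to 5000 UMIs, so no direction is given for it, although it was lower in 11 of 13 settings. Its 24 control and 3 tomatidine UMIs in the core were too few to be counted. Of 27 mitophagy and autophagy genes 1 was higher and 0 lower. Of the respiratory chain, 0 of 35 nuclear and 0 of 13 mitochondrial genes were called, with medians of −0.15 and −0.11. Of 15 heat shock genes 0 were higher and 2 lower (Bag3 and Hspb8), and of 11 interferon genes 1 was higher (Ifit3, 0.79, and 0.42 at equal weights) and 0 lower. At equal weights Bag3 and Hspb8 stood at 0.10 and 0.38, so the sign of both turned, but 42.8% of the Hspb8 UMIs lay in cluster 11, with its 2 tomatidine cells, and in the core Hspb8 was at −1.36.

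Of 18 immediate early genes 1 was higher (Egr4, 0.84) and 4 were lower. Egr4 lost its call with each cell weighted alike (0.042), 56.5% of its UMIs lay in cluster 9, and 1 tomatidine cell held 18 of 65. Fos had 1258 UMIs in control and 397 in tomatidine cells, a log2 ratio of −0.81 (−0.97 to −0.64) that was −0.76 at equal weights, −1.64 in the core and −1.25 in cluster 1. Dusp1, a phosphatase induced with Fos, stood at 143 and 82.3 CPM (−0.79, and −0.70 at equal weights), and Nr4a3 and Nr4a2 at −0.89 and −0.72. Nr4a3 was not called in the core (−0.52) or without habenula cells (−0.26). Of the UMIs of Nr4a2, 51.0% lay in the habenula-like cluster 8, and its direction turned to 1.04 without habenula cells. Of the members not called, Egr1 was at 0.01, Jund at 0.13, Arc at 0.33 and Npas4 at 0.45 (0.13 to 0.77). Arc ranged from 0.17 to 0.69 over 17 settings, which passes 1.5-fold at its upper end. In hippocampal and cortical neurons Fos stood at 47.4 and 38.0 CPM and Dusp1 at 63.4 and 54.8 CPM, so their gap between the libraries was wider in the thalamic cells, and that difference was not tested. Fos was lower in the tomatidine library in the other neurons as well. It stood at 57.1 and 45.7 CPM in GABAergic cells and at 49.0 and 33.8 CPM in Slc17a6 cells with the excluded factors. In those with low Tcf7l2 and Lef1 it stood at 90.8 and 61.6 CPM.

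Genes of other cell types moved as well. Of 7 microglial markers 6 were higher and 0 lower (median 0.81), with a summed level of 175 CPM in control and 278 CPM in tomatidine cells, and 92.9 and 139 CPM in the core, and no marker was at 0. In hippocampal and cortical neurons the same sum was 304 and 300 CPM. Of 13 habenula markers 0 were higher and 6 lower at a median of −0.55, and 2 were lower at equal weights. Of 5 oligodendrocyte precursor markers 3 were higher, of 6 endothelial markers 3 were higher, and of 8 oligodendrocyte and 8 astrocyte markers 0 were called. In the core, by contrast, 5 of 8 astrocyte markers were higher (median 0.63) and 5 of 8 oligodendrocyte markers lower (median −1.0). The summed astrocyte markers there were 1297 CPM in control and 1378 CPM in tomatidine cells, led by Slc1a2, and the oligodendrocyte markers 1038 and 671 CPM, with 0 markers of either list at 0. The part of these shifts in the core ratios of Prkcd, Calb2, Fos and Gabrg1 was not tested. Of 13 hippocampal and cortical markers 1 was higher and 3 lower, of 7 reticular and GABAergic markers 4 higher and 1 lower, and of 3 midbrain markers 2 higher. Of the 12 midbrain markers listed, Foxa2 and Lmx1b were at 0.

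**Figure D5:**
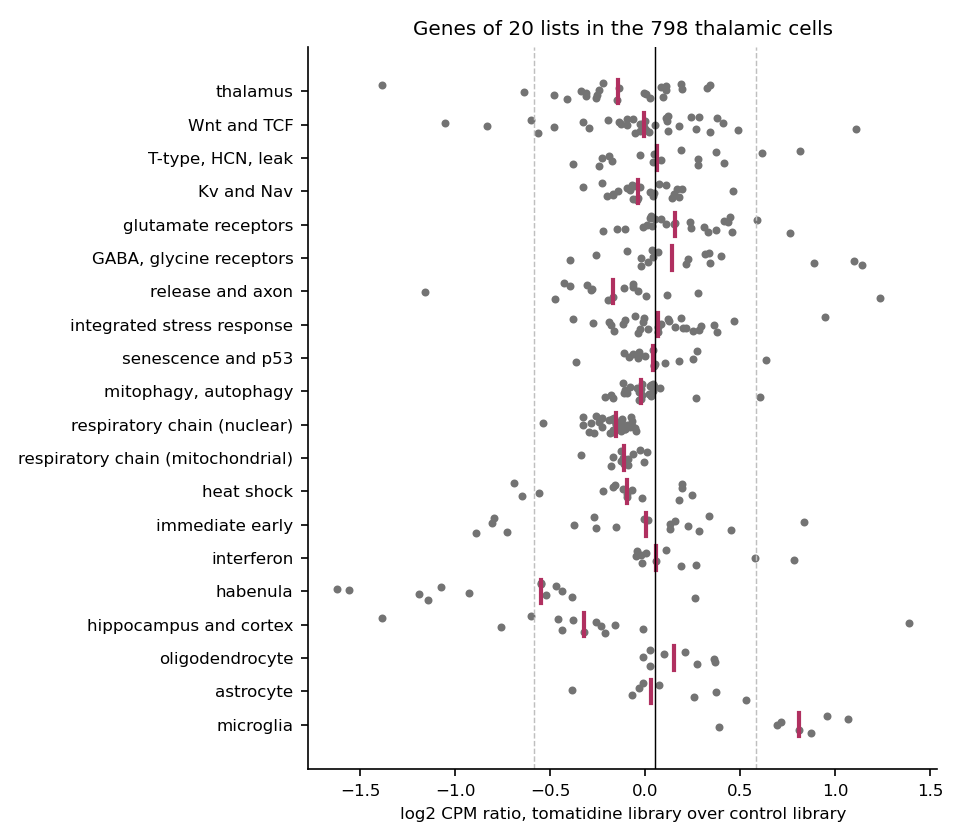
Log2 CPM ratio of tomatidine over control over the 798 cells for the genes with at least 100 UMIs in 20 lists (grey points), with each list's median (red bar), the median of all 11532 genes (black line, 0.05) and 1.5-fold (dashed lines). The respiratory chain, stress and channel lists lie between the dashed lines almost throughout, the microglial list has a median of 0.81 and the habenula list of −0.55.

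Shares of cells with a UMI depend on depth, so each cell was also thinned to 5000 UMIs, without the 10 control and 12 tomatidine cells below that depth. Unthinned, 9.84% of control and 7.48% of tomatidine cells had a UMI of Cdkn1a, and thinned 1.47% and 2.15%, with 3.33% and 3.71% of thinned hippocampal and cortical neurons. The order of the libraries turned with depth, so none is read from these shares. Cdkn2a (chr4:89274471-89294653, minus strand), which encodes p16, had UMIs in 1 control cell (0.229%) and 2 tomatidine cells (0.554%), under the 0.686% and 0.831% that a count of 0 would allow, against 0.835% and 0.948% of hippocampal and cortical neurons, and no difference was detectable at this depth. Prkcd, at the same thinned depth, was found in 69.0% of control and 57.7% of tomatidine cells, against 9.19% and 6.51% of hippocampal and cortical neurons, and Fos in 17.9% and 9.98%, against 9.38% and 8.78%. Calb2 was found in 35.1% and 49.0%, against 4.01% and 5.15%. The thinned shares had the same order between the libraries as the CPM for these 3 genes.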

How the data were processed

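The authors fixed and dissociated frozen hippocampus, hybridised gene probes and mapped their reads against mm10. The deposited values are raw UMI counts for 19059 genes in each cell called by the software, without normalization. The processing notes name Cell Ranger 8.0.0, and the matrix header 7.1.0. The study filtered, integrated and removed doublets afterwards; the deposited matrices hold all 31097 cells, and the values here were computed from them.

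The members, the gene lists and the tests were chosen with earlier results of these data known. Counts were summed per library over the chosen cells and divided by all UMIs of those cells (CPM). No test was possible with 1 library per group. Shares have exact Clopper-Pearson intervals, their differences Newcombe intervals, and log2 ratios exact conditional binomial intervals. A gene needed at least 100 UMIs, and calls were 1.5-fold (tomatidine over control) or 2-fold in both libraries (against hippocampal and cortical excitatory neurons, chosen by Slc17a7). "Equal weights" means that each cluster had the same share of the UMIs in both libraries.

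Cells were clustered in scanpy 1.11.5 (2000 variable genes without the genes of the rule and Y-linked genes, 20 principal components, 15 neighbours, Leiden resolution 0.5). A cluster was named only if at least 3 markers of a list were at least 2-fold raised and found in at least 10% of its cells, if no other list had as many, and if 1 of them was among the 10 leading genes; the GABAergic list gave no name, since the rule keeps Slc17a6 above Gad1 and Gad2. Doublets were scored with Scrublet and kept, and leaving out the top 2% by score was an alternative. Named genes were the genes of the rule, Cdkn1a and Cdkn2a, up to 2 members at each end of each list, the 10 genes at each end of the tomatidine ratio among those with at least 200 UMIs, the 20 highest and 10 lowest against hippocampal and cortical neurons, the leading genes of each cluster, and thalamus and habenula genes by their CPM; the further members of channel, receptor, Wnt and immediate early lists were named after their values were seen. Coordinates are from GENCODE M21 (GRCm38). Alternatives changed cell thresholds, filters, scaling (trimmed mean of M values by edgeR 4.0.16 in R 4.3.3), gene minimum, fold and clustering. A few genes that the rule names are not reported here.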

Additional observations from a re-analysis of the deposited data

How the results depend on the processing

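The difference in share of −0.434 points turned to 0.326 with at most 6000 genes per cell and was −0.00492 without cells holding genes of other cell types; in the 10 other settings it lay between −0.651 and −0.175, and in 3 of these the interval took in 0. The 511 higher and 167 lower genes became 1016 and 370 with at least 20 UMIs per gene, 2104 and 1367 with no minimum, 142 and 65 with at least 500, and 118 and 64 at 2-fold. With at most 6000 genes per cell there were 321 and 150, without habenula cells 601 and 106, without cells with genes of other types 542 and 118, and at equal weights 447 and 116. In the 27 control and 28 tomatidine cells without a Y-linked UMI there were 61 and 47, and, in settings chosen after seeing the data, 254 and 253 in the core and 151 and 84 in cluster 1. Against hippocampal and cortical neurons, 4-fold left 472 higher and 555 lower genes. Among 65 genes named with this ratio the sign of a called value turned at equal weights for Col27a1 (2.10; cluster 11 had 2 tomatidine cells), C1ql2 (0.016), Sfrp2 (−0.093), Fzd5 (0.17), Bag3 (0.10) and Hspb8 (0.38); of the values not called, that of Calb2 turned there too (−0.077). It also turned under the limits of the study on genes per UMI and mitochondrial share for Neurod6 (0.65) and Hspb8 (0.26), without habenula cells or cells with genes of other types for Neurod6 (0.60 and 0.35), without habenula cells for Nr4a2 (1.04), with at least 6 Slc17a6 UMIs for Vtn (−0.54), in the core for Phlda3 (−0.42), in cluster 1 for Nkd1 (0.040) and without the top cells for Spp1 (−0.50). The cause of these changes was not tested, except that fewer genes or cells were counted where the setting removed them. C1ql2 had 51.1% of its UMIs in cluster 11, so its value at equal weights rests on the 2 tomatidine cells there too. In the core C1ql2 was at −2.28. Of the other values of the 65 genes followed, 886 stayed within the counting interval of the main value and 246 moved outside it without a called value changing sign; values were taken only where a gene had at least 100 UMIs under the setting. The number of clusters was 12, and 8 to 16 under the alternatives. No paired analysis was possible because each group had 1 library. Depth limits genes of few UMIs, and the pooling of mice leaves the spread between animals unknown.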

Other observations

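All 13 control UMIs of Cdkn2a in the thalamic cells came from 1 cell, whereas the 2 tomatidine UMIs came from 2 cells. Igkc, the constant region of the immunoglobulin kappa light chain, led the neuronal cluster 7 at 44.2 CPM, against 0.95 CPM in the other thalamic cells, and was found in 37.5% of the cells of cluster 7. Sst, which encodes somatostatin, stood at 1563 CPM in cluster 11, although only 18.5% of its cells had a UMI of it. The summed choroid plexus genes were lower in the tomatidine library in the other sets of neurons counted as well: 2176 and 189 CPM in GABAergic neurons, 731 and 185 CPM in Slc17a6 neurons with the excluded factors, and 621 and 145 CPM in Slc17a6 neurons with low Tcf7l2 and Lef1.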
